A study of Mus musculus with 6 samples.

Results

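Matrix metalloproteinases (MMPs), the tissue inhibitors of metalloproteinases (TIMPs) and the sheddase ADAM17 were followed in RNA-seq of CNS monocytes in EAE, an immunization-induced model of multiple sclerosis. The genes were taken by name: *Mmp8*, *Mmp9*, *Mmp12*, *Mmp13*, *Mmp14*, *Mmp19*, *Timp1*, *Timp2*, *Timp3* and *Adam17*, which are 10 of the 54232 genes in the deposited tables. All 10 were matched to a gene identifier, and 8 had enough counts to be tested. There were 3 WT and 3 *Ifnar1*-/- libraries, numbered from 1 to 3 in each group, and the comparison asked which transcripts differed between monocytes with and without IFNAR1, a chain of the type I IFN receptor.

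Both groups came from mixed BM chimera mice, made by giving lethally irradiated GFP+ recipients WT (CD45.1) and *Ifnar1*-/- (CD45.2) BM cells at equal numbers. All mice had EAE and received 30000 IU of rIFN-β daily, and the cells were sorted at disease peak as GFP-CD45+CD11b+Ly6ChiLy6G-. No library came from mice without rIFN-β, so the treatment is common to both groups, and the donor's CD45 allele goes with the genotype. The study names 3 recipients for this sort, each carrying marrow from both donors, so a mouse may have given a library to each group. The labels do not say which libraries came from which mouse, and p-values measure the spread between these libraries, which may be partly technical. Expected counts, which are RSEM's estimates of reads per gene, came to 7321380, 4531782 and 4946747 for WT libraries 1, 2 and 3, and to 6916101, 5811323 and 5442568 for *Ifnar1*-/- libraries 1, 2 and 3. The deposited files also carry, beside the genotype, a number that differs between libraries 1, 2 and 3 and is the same for equal-numbered libraries of both groups. The labels call the libraries replicates and do not explain this number, from which no group was made. If it marks a further factor, the SDs and the p-values without a replicate block include that factor as well as replicate error.

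MMPs are zinc-dependent enzymes that cut extracellular matrix and basement membrane proteins, and most are made as inactive proenzymes that other proteases must cleave. TIMPs bind the active site of MMPs and block it, so the balance of enzymes and inhibitors sets how much matrix is cut. In neuroinflammation, MMPs of infiltrating leukocytes are known for opening the basement membranes around CNS vessels, and ADAM17 releases TNF and other membrane proteins from the cell surface.

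The promoters of *Timp1*, *Mmp14* and *Mmp13* are shown because *Timp1* and *Mmp14* had the largest differences between the groups and *Mmp13* was the member with matches to the most motifs. Each sequence is the 250 bases before the RefSeq gene start in GRCm38.p6, on the plus strand, 5′ to 3′, at chrX:20869916-20870165 for *Timp1*, chr14:54431348-54431597 for *Mmp14* and chr9:7272264-7272513 for *Mmp13*. Capitals mark motif matches, and there are none in the *Timp1* and *Mmp14* windows.
Timp1: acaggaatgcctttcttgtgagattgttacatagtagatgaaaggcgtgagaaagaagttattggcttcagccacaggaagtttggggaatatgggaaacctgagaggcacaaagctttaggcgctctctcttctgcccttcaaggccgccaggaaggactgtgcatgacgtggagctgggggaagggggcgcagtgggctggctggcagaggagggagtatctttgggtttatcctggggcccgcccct
Mmp14: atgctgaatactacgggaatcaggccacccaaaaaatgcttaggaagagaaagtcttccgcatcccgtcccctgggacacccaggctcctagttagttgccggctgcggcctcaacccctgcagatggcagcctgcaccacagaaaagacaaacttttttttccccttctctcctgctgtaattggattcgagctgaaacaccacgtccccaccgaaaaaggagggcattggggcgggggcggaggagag
Mmp13: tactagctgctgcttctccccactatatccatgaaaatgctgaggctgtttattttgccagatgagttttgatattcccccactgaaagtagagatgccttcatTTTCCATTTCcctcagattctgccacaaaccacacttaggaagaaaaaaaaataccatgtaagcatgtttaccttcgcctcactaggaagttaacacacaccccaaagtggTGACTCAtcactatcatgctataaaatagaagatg

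Windows from 250 bases before to 50 bases after the start were searched on both strands for the core of the IFN-stimulated response element (GAAA, 2 bases of any kind, GAAA), the STAT-binding GAS element (TTCNNNGAA) and the AP-1 site (TGANTCA). Among all 32851 RefSeq windows, 3.44% held the first, 8.30% the second and 7.81% the third. RefSeq windows were found for 8 of the 10 genes, namely all but *Mmp9* and *Mmp19*. In *Mmp13*, the first run of capitals is an ISRE core on the opposite strand, which begins 146 bases before the start, and the second is an AP-1 site that begins 35 bases before it. *Mmp12* has windows at 2 starts, and the one at chr9:7347124-7347373 holds an AP-1 match 44 bases before its start. The windows of *Mmp8*, *Mmp14*, *Timp1*, *Timp2*, *Timp3* and *Adam17* held no match to these letters. A match is a description of the letters only.

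The targeted gene was examined first, as a check of the labels. On chromosome 16, *Ifnar1* stood at 153, 126 and 111 normalized CPM (a gene's count relative to its library's total, after the TMM method of edgeR adjusted that total) for WT libraries 1, 2 and 3 and at 110, 102 and 109 for *Ifnar1*-/- libraries 1, 2 and 3. The groups did not overlap, but the difference was small: its log2 fold change, always WT over *Ifnar1*-/-, was 0.28 (SE 0.15), and the adjusted p was 0.360 (edgeR). The mean transcript length that RSEM assigned to *Ifnar1*, weighted by the estimated abundance of its 8 annotated transcripts, separated the groups more clearly. It was 3552, 3198 and 3307 bases in the WT group and 2219, 2284 and 2471 bases in the *Ifnar1*-/- group, so every *Ifnar1*-/- library was shorter than every WT library. Groups did not overlap in this length for 10.4% of the 9191 tested genes with more than 1 transcript, and which exons held the reads cannot be read from a gene's total. TPM divide by this length, and the fold change of *Ifnar1* was -0.30 on the scale of log2(TPM + 0.5).

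The sorted cells carried the transcripts of monocytes. All 10 monocyte markers had more than 3 counts in some library, and *Lyz2*, a lysozyme gene of myeloid cells, was the most abundant, with 2636 to 4179 TPM. *Ly6c2*, which encodes the Ly6C antigen used in the sort, had 726, 788 and 640 normalized CPM in WT and 177, 300.3 and 337 in *Ifnar1*-/- libraries (log2 fold change 1.40, SE 0.23, adjusted p = 0.00957, edgeR). The 10 markers together were higher in every *Ifnar1*-/- than in every WT library, with 13668 to 14379 normalized CPM in WT and 15756 to 16728 in *Ifnar1*-/- libraries. For *Lyz2* itself the groups overlapped (log2 fold change -0.25, adjusted p = 0.587, edgeR), as they did for the abundant *Chil3* (-0.50, adjusted p = 0.309, edgeR). *Ccr2*, the chemokine receptor of these monocytes, had 648, 694 and 587 normalized CPM in WT and 1269, 794 and 905 in *Ifnar1*-/- libraries, without overlap (log2 fold change -0.62, adjusted p = 0.143, edgeR). *Ly6g*, the neutrophil antigen gated out, was at 0 to 0.790 normalized CPM. Other neutrophil markers were present, and their values stand beside *Mmp9* below. Fibroblast markers summed to at most 1.14 normalized CPM, with *Col1a1*, *Dcn*, *Lum* and *Pdgfra* at 3 counts or fewer in every library. *Xist* was present in all 6 libraries at 872.5 to 1240.0 normalized CPM, and the Y-linked genes *Ddx3y*, *Eif2s3y*, *Kdm5d* and *Uty* were at 3 counts or fewer in every library. *Timp1* lies on the X chromosome.

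The 10 genes ranged from abundant to barely detected. On the TPM scale, which divides by transcript length so that levels of different genes can be compared, *Mmp14* was the highest at 91.7 ± 35.9 TPM (SD, n = 6 libraries) and *Mmp8* followed at 70.4 ± 19.4. *Adam17* (41.5 ± 6.21), *Mmp19* (40.2 ± 9.73) and *Mmp12* (37.1 ± 11.4) formed the middle of the order, and *Timp1* (17.4 ± 11.7) was the most abundant inhibitor. *Timp2* (3.89 ± 1.41) and *Mmp9* (3.80 ± 2.91) lay lower, and *Mmp13* (0.307 ± 0.132) and *Timp3* (0.112 ± 0.114) were lowest. Of neighbours in this order, the ranges of single libraries were separate only between *Timp1* (lowest library 8.38 TPM) and *Timp2* (highest 5.61), and between *Mmp9* (lowest 1.41) and *Mmp13* (highest 0.490).

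*Mmp14* ranked first in all 3 WT libraries and in *Ifnar1*-/- library 2, and *Mmp8* ranked first in *Ifnar1*-/- libraries 1 and 3. *Mmp19* ranked at place 2 in library 1 of both groups, and *Timp1* at place 4 in *Ifnar1*-/- library 1. *Mmp13* and *Timp3* ranked at places 9 and 10 in all 6 libraries. The deposited TPM of WT library 1 are lowered for other genes by *Rn7s2*, a small cytoplasmic RNA gene, which took 27.8% of the TPM there and 7.36% to 11.2% in the other libraries. The main test between the groups used counts, and TPM levels of WT library 1 given below carry this limit.

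**Figure D1:**
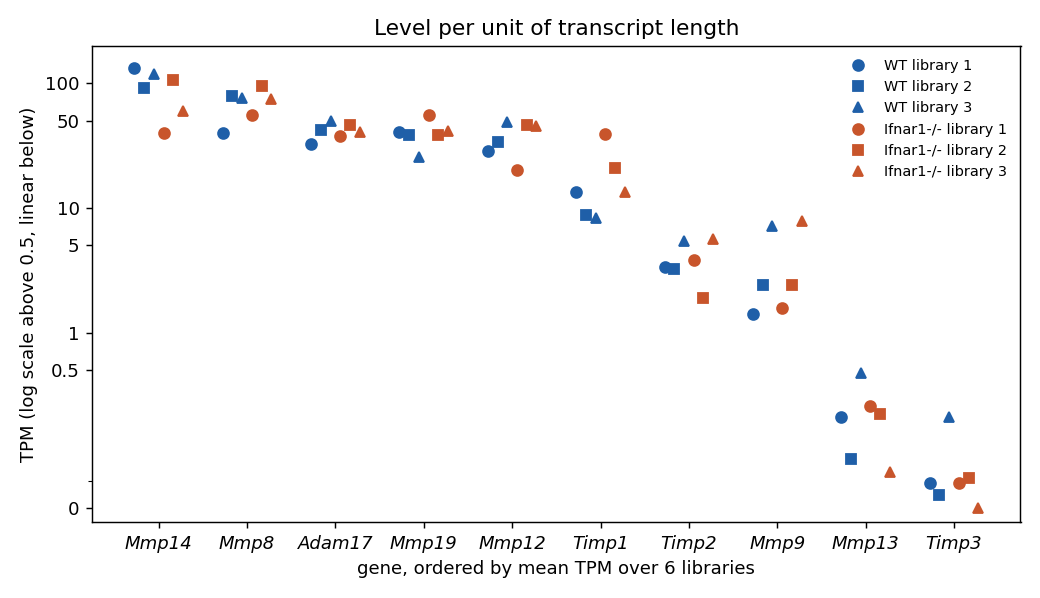
TPM (vertical axis, log scale above 0.5 and linear below) of each gene in each of the 6 libraries, with genes ordered by their mean; blue symbols are WT and orange symbols Ifnar1-/- libraries. Mmp14 and Mmp8 lie highest, and Mmp13 and Timp3 lie below 0.5 TPM in every library.

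In the edgeR test across 11254 genes, 0 of the 10 genes were differentially expressed, by the rule that the adjusted p is 0.05 or lower and the change 1.5-fold or larger. Of all genes tested, 2.13% (240 genes) met this rule, 1.67% higher and 0.462% lower in WT. DESeq2 and limma-voom also called 0 of the 8 members tested, beside 4.17% and 1.96% of all genes. With the replicate number as a block, edgeR called 1 member, *Timp1*, beside 1.95% of all genes, and so did DESeq2 with the block (2.47% of all genes) and edgeR with the block and offsets for GC content and length (3.09%). Without the filter on low counts, edgeR called *Mmp14* and *Timp1*, beside 4.1% of the 21265 genes with any count. At an unadjusted p under 0.05, without the block, there were 2 of 8, *Mmp14* and *Timp1*, beside 17.8% of all genes. The normalized CPM of the groups overlapped for all 8, whereas 23.4% of all genes tested had groups that did not overlap. The median log2 fold change of the 8 was -0.02, beside -0.01 for all genes tested, with 3 positive and 5 negative values. In bulk RNA, fewer cells of a type and less RNA per cell cannot be told apart.

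**Figure D2:**
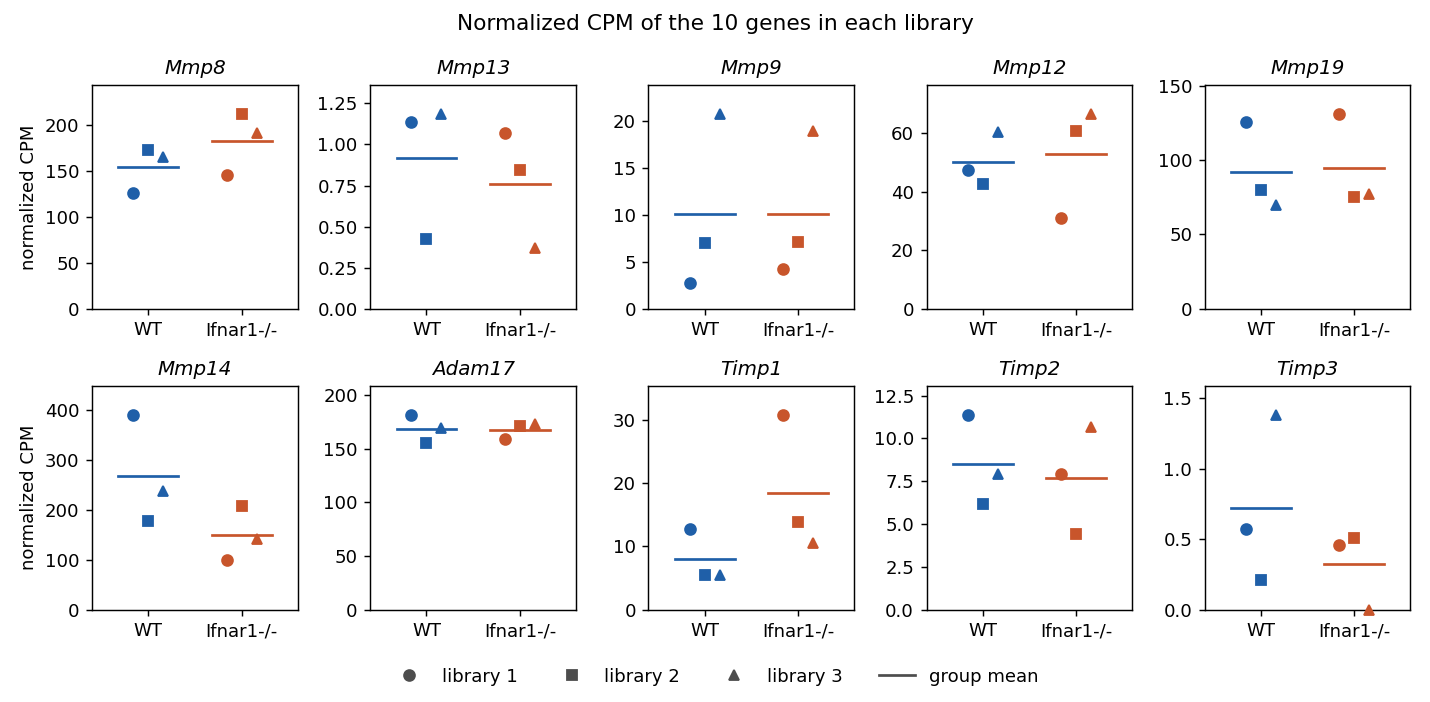
Normalized CPM (vertical axes, each from 0 and on its own scale) of the 10 genes in the 3 WT (blue) and 3 Ifnar1-/- (orange) libraries; symbols mark the library number and lines the group mean. Mmp14 is highest in WT library 1 and Timp1 in Ifnar1-/- library 1, Mmp9 is highest in library 3 of both groups, and the groups overlap in every panel.

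Among the collagenases, which cut fibrillar collagens, *Mmp8* was abundant and *Mmp13* was at the limit of detection. *Mmp8*, the collagenase first known from neutrophils (ENSMUSG00000005800.3, chr9:7558456-7568485), had 126, 173 and 166 normalized CPM for WT libraries 1, 2 and 3 and 146, 212 and 192 for *Ifnar1*-/- libraries 1, 2 and 3. Library 1 was the lowest in each group, and 2 of the WT values lay between the *Ifnar1*-/- values. The log2 fold change was -0.24, with a 95% interval from -0.65 to 0.17 (adjusted p = 0.533, edgeR), and it was negative in all 18 alternative fits, from -0.37 to -0.10. *Mmp13* (chr9:7272514-7283331) had 8, 2 and 6 counts in WT and 7, 5 and 2 in *Ifnar1*-/- libraries and was too low to be tested. A count of 3, taken as the floor, corresponded to 0.410 to 0.662 CPM before normalization, which covers counting error only.

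*Mmp9*, the gelatinase that degrades type IV collagen of basement membranes, did not follow the genotype. *Mmp9* (ENSMUSG00000017737.2, chr2:164940780-164955850) had 19, 33 and 105 counts for WT libraries 1, 2 and 3, which are 2.70, 7.01 and 20.7 normalized CPM, and 28, 42 and 103 counts in *Ifnar1*-/- libraries, which are 4.28, 7.12 and 18.9 normalized CPM. In each group library 3 was the highest and library 1 the lowest, and the highest of the 6 libraries was 7.67 times the lowest. The log2 fold change between the groups was -0.01, but its 95% interval was wide, from -1.48 to 1.47 (adjusted p = 0.996, edgeR). Leaving out 1 library moved it from -1.07 (without WT library 3) to 0.83 (without *Ifnar1*-/- library 3), so these libraries do not bound the difference in *Mmp9* closely.

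Most markers of neutrophils and of their precursors shared with *Mmp9* a high library 3 in each group. The 12 markers together had 411, 861 and 2558 normalized CPM for WT libraries 1, 2 and 3 and 1061, 891 and 2874 for *Ifnar1*-/- libraries 1, 2 and 3. From *Ifnar1*-/- library 1 to library 2 this sum fell, whereas *Mmp9* rose from 4.28 to 7.12 normalized CPM. All 12 had more than 3 counts in some library, 10 were highest in library 3 of both groups (all but *Cxcr2* and *Csf3r*), and 9 were lowest in WT library 1. *S100a9*, the most abundant, had 42.7, 170 and 509 normalized CPM in WT and 267, 166 and 734 in *Ifnar1*-/- libraries. *Ltf*, which encodes lactoferrin of secondary granules, had 38.3, 51.6 and 303 normalized CPM in WT and 73.8, 71.3 and 229 in *Ifnar1*-/- libraries. The defining marker *Ly6g* was near 0, as given above, and the part of such cells in the *Mmp9* values was not tested.

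Among 10047 other protein-coding genes, those with the profile closest to *Mmp9* over the 6 libraries were *Pglyrp1*, *Rflnb*, *Depdc1a*, *Lcn2* and *Ngp*, with a root mean square difference of centred log2 values from 0.21 to 0.33. *Mmp9* was chosen for this description after its values were seen. *Pglyrp1*, a peptidoglycan recognition protein of neutrophil granules, had 3.56, 7.01 and 21.5 normalized CPM in WT and 6.87, 8.64 and 21.1 in *Ifnar1*-/- libraries. *Mmp8* did not share this pattern, since library 3 was the highest in neither group.

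**Figure D3:**
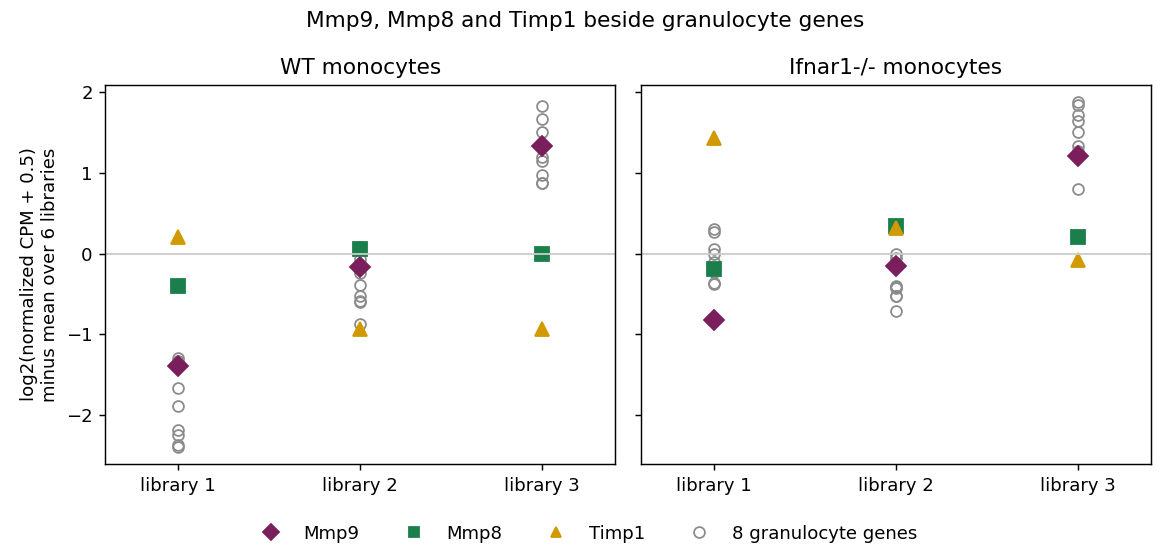
Deviation of log2(normalized CPM + 0.5) from its mean over 6 libraries (vertical axis) for Mmp9, Mmp8, Timp1 and 8 neutrophil and precursor markers (open circles: S100a8, S100a9, Camp, Ltf, Ngp, Lcn2, Mpo and Elane) by library and group. Mmp9 and the 8 markers drawn lie highest in library 3 of each group, and Timp1 lies highest in library 1 of each group. The 8 are part of a list of 12, of which Cxcr2 and Csf3r, not drawn, were not highest in library 3 of both groups.

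*Mmp12* and *Mmp19* had small log2 fold changes, but their 95% intervals reached past the 1.5-fold limit on the negative side. *Mmp12*, the macrophage elastase (chr9:7344381-7369499), had 47.5, 42.7 and 60.4 normalized CPM in WT and 31.2, 60.8 and 66.6 in *Ifnar1*-/- libraries. All 3 WT values fell inside the *Ifnar1*-/- range, and the log2 fold change was -0.07 (95% interval -0.64 to 0.50, adjusted p = 0.923, edgeR). *Mmp19*, which cuts basement membrane and other matrix proteins (chr10:128790910-128800824), had 126, 80.1 and 69.9 normalized CPM in WT and 131, 75.2 and 77.2 in *Ifnar1*-/- libraries. Library 1 stood highest in each group, and the log2 fold change was -0.04 (95% interval -0.62 to 0.54, adjusted p = 0.962, edgeR). *Mmp19* overlaps *Tmem198b* on the opposite strand, with 296 counts over the 6 libraries, and whether the counting used strand is not given in the sources used here.

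*Mmp14*, which encodes the membrane-anchored MT1-MMP that activates pro-MMP2 on the cell surface, had the smallest unadjusted p of the members. *Mmp14* (ENSMUSG00000000957.11, chr14:54431612-54445364) had 389, 177 and 236 normalized CPM for WT libraries 1, 2 and 3 and 99.4, 207 and 141 for *Ifnar1*-/- libraries 1, 2 and 3. WT library 1 stood highest and *Ifnar1*-/- library 1 lowest, and *Ifnar1*-/- library 2 lay above WT library 2. Library 1 of each group also held the extremes in the share of counts from protein-coding genes. This share was 74.9%, 73.7% and 72.3% in WT and 66.4%, 73.3% and 69.3% in *Ifnar1*-/- libraries. Mitochondrially encoded ribosomal RNA held 12.3%, 14.2% and 17.6% of counts in WT and 22.7%, 15.1% and 19.6% in *Ifnar1*-/- libraries. The part of library quality in the values of *Mmp14*, or of *Timp1* below, was not tested. Means were 268 ± 110 (SD, n = 3) for WT and 149 ± 54.1 (SD, n = 3) for *Ifnar1*-/- libraries, a log2 fold change of 0.85 (SE 0.31, 95% interval 0.16 to 1.54). The unadjusted p was 0.0211 and the adjusted p 0.192 in edgeR, and the two-sided exact permutation test gave p = 0.2, where 3 against 3 libraries cannot give less than 0.1. Without WT library 1 the log2 fold change was 0.48, and without the filter on low counts *Mmp14* passed the rule (0.84, adjusted p = 0.000189, edgeR).

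The 5 protein-coding genes with the profile closest to *Mmp14* were *Ciz1*, *R3hdm2*, *Rab11fip4*, *Rin3* and *Mink1*, with root mean square differences of 0.08 to 0.10 on the centred log2 scale. Each of them was highest in WT library 1 and lowest in *Ifnar1*-/- library 1. *Rin3*, a regulator of the small GTPase Rab5, had 152, 71.8 and 102 normalized CPM in WT and 40.0, 73.2 and 60.9 in *Ifnar1*-/- libraries (log2 fold change 0.91, adjusted p = 0.135 in edgeR), and the adjusted p of the 5 ranged from 0.124 to 0.296. Endothelial cell and pericyte markers also stood highest in WT library 1 and low in *Ifnar1*-/- library 1, with sums of 216, 126 and 108 normalized CPM in WT and 70.4, 104 and 69.7 in *Ifnar1*-/- libraries. Of these 7 markers, 5 had more than 3 counts in some library, *Flt1* was the most abundant, *Vwf* was higher in WT (1.35, adjusted p = 0.0189, edgeR), and *Cldn5* and *Rgs5* were at 3 counts or fewer. The part of such cells in the *Mmp14* values was not tested.

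*Adam17* was the member with the least variation between libraries. *Adam17* (ENSMUSG00000052593.16, chr12:21323509-21373632) had 181, 155 and 169 normalized CPM in WT and 159, 171 and 173 in *Ifnar1*-/- libraries, and the highest library was 1.17 times the lowest. The groups overlapped, and the log2 fold change was 0.01 with a 95% interval of -0.29 to 0.31 (adjusted p = 0.980, edgeR). This interval lies inside the 1.5-fold limit, which is 0.58 on the log2 scale. *Adam17* overlaps *Iah1* on the opposite strand, with 629 counts over the 6 libraries, against 730 to 1275 counts per library for *Adam17* itself.

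*Timp1* had the largest difference of the members, in the opposite direction to *Mmp14*. *Timp1* (ENSMUSG00000001131.11, chrX:20870166-20874735), a secreted inhibitor of most MMPs, had 90, 26 and 28 counts for WT libraries 1, 2 and 3, which are 12.8, 5.53 and 5.53 normalized CPM, and 202, 82 and 57 counts in *Ifnar1*-/- libraries, which are 30.8, 13.9 and 10.5 normalized CPM. Library 1 was the highest in each group, and WT library 1 lay above *Ifnar1*-/- library 3, so the groups overlapped. Means were 7.95 ± 4.20 (SD, n = 3) for WT and 18.4 ± 10.9 (SD, n = 3) for *Ifnar1*-/- libraries, a log2 fold change of -1.18 (SE 0.44, 95% interval -2.14 to -0.21). The unadjusted p was 0.0213 and the adjusted p 0.193 in edgeR, and the two-sided exact permutation test gave p = 0.2. Within each of the 3 pairs of libraries with equal numbers the WT library was the lower, and with that number as a block *Timp1* passed the rule (-1.19, adjusted p = 0.0233, edgeR). Without *Ifnar1*-/- library 1 the log2 fold change was -0.57 and without WT library 1 it was -1.73, and without the filter on low counts *Timp1* passed the rule (-1.18, adjusted p = 0.000117, edgeR).

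*Spp1* and *Thbs1*, matrix and matricellular proteins of the lists described below, were also highest in library 1 of each group. *Spp1* (osteopontin) had 472, 125 and 104 normalized CPM in WT and 770, 185 and 146 in *Ifnar1*-/- libraries, and its log2 fold change of -0.65 had an adjusted p of 0.657 (edgeR). Synapsin gene *Syn1* overlaps *Timp1* on the opposite strand but had 10 counts over all 6 libraries.

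The other inhibitors were low. *Timp2* (chr11:118301069-118355740), which also takes part in the activation of pro-MMP2 by MT1-MMP, had 11.4, 6.16 and 7.90 normalized CPM in WT and 7.94, 4.41 and 10.7 in *Ifnar1*-/- libraries. These values overlapped throughout, with a log2 fold change of 0.17 (95% interval -0.59 to 0.92, adjusted p = 0.842, edgeR). *Timp3* (chr10:86300372-86349506), the matrix-bound inhibitor that also blocks ADAM17, had 4, 1 and 7 counts in WT and 3, 3 and 0 in *Ifnar1*-/- libraries, was not tested and was at or near the floor of 3 counts. The count of 0 in *Ifnar1*-/- library 3 allows up to 0.551 CPM.

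Summed TPM of the MMP members were higher than those of the TIMP members in every library. The 6 MMPs summed to 245, 246 and 278 TPM for WT libraries 1, 2 and 3 and to 174, 288 and 229 TPM for *Ifnar1*-/- libraries 1, 2 and 3. The 3 TIMPs summed to 16.9, 12.0 and 14.1 TPM in WT and to 43.2, 22.9 and 19.0 TPM in *Ifnar1*-/- libraries, of which *Timp1* made up 59.4% to 91.2%. The ratio of the sums was 14.5, 20.5 and 19.7 in WT and 4.03, 12.6 and 12.0 in *Ifnar1*-/- libraries. The lowest WT library lay above the highest *Ifnar1*-/- library. The MMP sums overlapped between the groups and the TIMP sums, mostly *Timp1*, did not, so this separation is not independent of the *Timp1* difference. For single genes, the normalized CPM of the groups did not overlap in 23.4% of those tested. The ratio of *Mmp14* to *Timp2* TPM was 39.5, 28.2 and 22.2 in WT and 10.4, 55.9 and 10.7 in *Ifnar1*-/- libraries, and here the groups overlapped, with *Ifnar1*-/- library 2 the highest. The sums and ratios describe transcript levels and do not give amounts of active enzyme or of inhibitor protein. They were given no test, since they are made of members whose values were already seen.

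**Figure D4:**
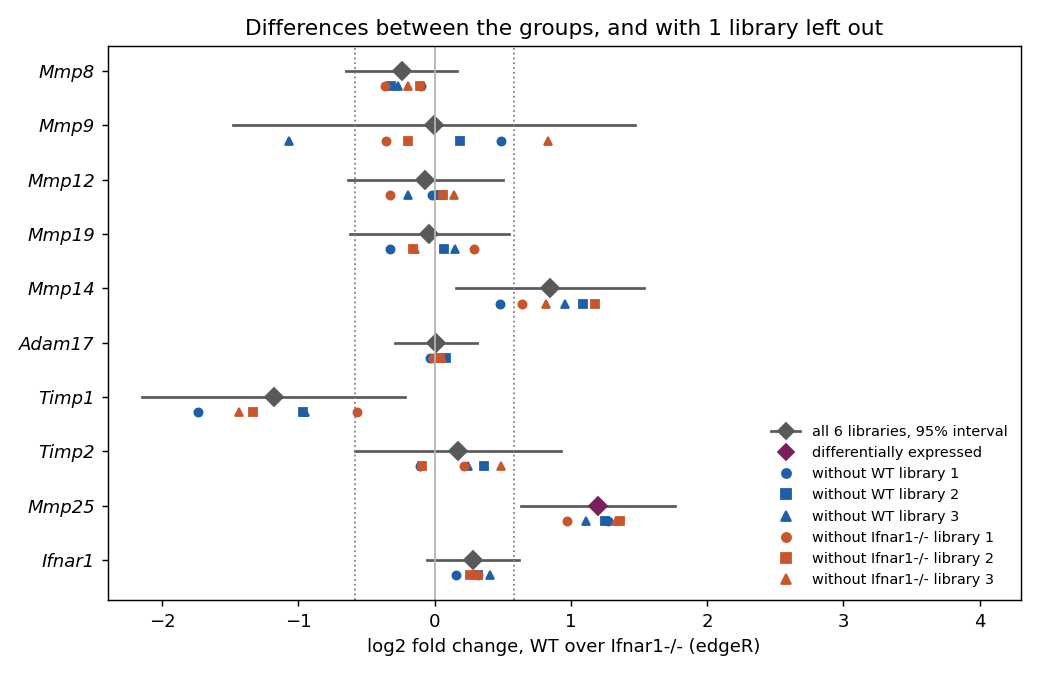
Log2 fold change, WT over Ifnar1-/- (horizontal axis, edgeR), of the 8 tested members, Mmp25 and Ifnar1. Diamonds and lines are the estimate and 95% interval from all 6 libraries, small symbols the estimate with 1 library left out, and dotted lines the 1.5-fold limits; Mmp25 is the differentially expressed gene, and Timp1 and Mmp14 move closer to 0 without library 1 of Ifnar1-/- and WT, respectively.

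Of 19 other MMP and TIMP family genes, 12 were at 0 in every library, 3 had more than 3 counts in some library (*Mmp2*, *Mmp25* and *Reck*), and 1 was tested. *Mmp25*, which encodes the GPI-anchored leukolysin (ENSMUSG00000023903.7, chr17:23628311-23645277), had 14.2, 14.7 and 18.0 normalized CPM in WT and 4.43, 8.13 and 7.91 in *Ifnar1*-/- libraries. Every WT library lay above every *Ifnar1*-/- library, and *Mmp25* was higher in WT by 1.20 on the log2 scale (SE 0.26, adjusted p = 0.0423, edgeR). With any of the 6 libraries left out, the log2 fold change stayed between 0.97 and 1.36 while the adjusted p rose to between 0.0567 and 0.134. *Mmp2*, the gelatinase that MT1-MMP activates, had 0.996, 1.28 and 2.96 normalized CPM in WT and 1.07, 1.36 and 2.76 in *Ifnar1*-/- libraries and was too low to be tested. *Reck*, a membrane-anchored MMP inhibitor, was at 0 to 1.18 normalized CPM.

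Of 11 other ADAM proteases and ADAM17 partners, 7 were tested and 0 were differentially expressed in edgeR, DESeq2 or limma-voom, with 2 at an unadjusted p under 0.05, and their median log2 fold change was 0.00. Of all genes tested, 2.13% (edgeR), 4.17% (DESeq2) and 1.96% (limma-voom) were differentially expressed. An unadjusted p under 0.05 was found for 17.8% of them, and their median was -0.01. *Adam10*, *Adam8* and *Adam9* were the most abundant and higher than *Adam17* on the TPM scale, with 78.5, 80.4 and 77.6 TPM on average in WT. *Adam10*, a sheddase with substrates in common with ADAM17, had 321, 314 and 261 normalized CPM in WT and 420, 364 and 324 in *Ifnar1*-/- libraries. Its groups did not overlap, but the log2 fold change of -0.31 had an adjusted p of 0.347 (edgeR). *Adam8* (log2 fold change 0.00, adjusted p = 0.998, edgeR) and *Adam9* (-0.09, adjusted p = 0.797) had overlapping groups.

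Of 20 ADAM17 substrates, 15 were tested, 1 was higher and 0 were lower in WT, 5 were at an unadjusted p under 0.05, and the median log2 fold change was 0.21. Of all genes tested, 1.67% were higher and 0.462% lower in WT, 17.8% were at such a p, and the median was -0.01. Whether the list differs from other genes was not tested. *Cd40*, the costimulatory receptor of antigen-presenting cells, had 42.0, 44.8 and 38.1 normalized CPM in WT and 23.4, 23.0 and 22.1 in *Ifnar1*-/- libraries. The groups were separate and differed by 0.87 on the log2 scale (SE 0.14, adjusted p = 0.00936, edgeR), and the adjusted p was 0.0525 without *Ifnar1*-/- library 3. Endothelial cell and pericyte markers, given with *Mmp14*, also summed higher in every WT than in every *Ifnar1*-/- library. So did B cell markers, at 1.49 to 1.71 normalized CPM in WT and 0.305 to 1.10 in *Ifnar1*-/- libraries. The part of such cells in the *Cd40* and *Mmp25* values was not tested. *Csf1r* and *Tnfrsf1b* were among the most abundant substrates. *Tnfrsf1b*, which encodes TNF receptor 2, had a log2 fold change of 0.53 (adjusted p = 0.132, edgeR), and *Csf1r*, the receptor of the growth factor CSF1, of 0.28 (adjusted p = 0.470, edgeR).

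Of 16 genes of the plasminogen and proprotein convertase cascade, which activates several pro-MMPs, 10 were tested and 0 were differentially expressed in edgeR, DESeq2 or limma-voom, with 2 at an unadjusted p under 0.05. Their median log2 fold change was 0.47, with 8 of 10 positive, beside a median of -0.01 for all genes tested. Of all genes tested, 17.8% were at such a p, and 2.13% (edgeR), 4.17% (DESeq2) and 1.96% (limma-voom) were called. Whether the list differs from other genes was not tested. *Plaur*, the urokinase receptor, had 322, 211 and 216 normalized CPM in WT and 236, 193 and 201 in *Ifnar1*-/- libraries (log2 fold change 0.25, adjusted p = 0.526, edgeR). *Thbs1*, which encodes thrombospondin 1, had 4456, 1240 and 1873 normalized CPM in WT and 2748, 993 and 1479 in *Ifnar1*-/- libraries (log2 fold change 0.54, adjusted p = 0.588, edgeR). *Cd44*, the hyaluronan receptor, had a log2 fold change of -0.04 (adjusted p = 0.942, edgeR). All 3 had overlapping groups.

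Of 18 matrix and basement membrane genes, 7 were tested and 0 were differentially expressed in edgeR or limma-voom, with 1 at an unadjusted p under 0.05, and their median log2 fold change was 0.10. Of all genes tested, 2.13% (edgeR) and 1.96% (limma-voom) were differentially expressed, 17.8% were at such a p, and the median was -0.01. DESeq2 called 1, beside 4.17% of all genes. This was *Col4a2*, a type IV collagen chain named here after its values were seen (log2 fold change 1.43, adjusted p = 0.0323, DESeq2), and edgeR gave it 1.41 with an adjusted p of 0.123. *Col4a2* had 15.9, 9.78 and 5.33 normalized CPM in WT and 2.75, 5.76 and 3.31 in *Ifnar1*-/- libraries. Endothelial cell and pericyte markers, given with *Mmp14*, were also highest in WT library 1, and the part of such cells in the *Col4a2* values was not tested. *Fn1* (fibronectin), *Spp1* and *Vcan* (versican) were the most abundant. *Fn1* had 9709, 5112 and 5251 normalized CPM in WT and 5615, 9657 and 5283 in *Ifnar1*-/- libraries, with 1 high library in each group and a log2 fold change of -0.03 (adjusted p = 0.973, edgeR). *Vcan* had 597, 417 and 413 normalized CPM in WT and 841, 430 and 436 in *Ifnar1*-/- libraries (log2 fold change -0.26, adjusted p = 0.661, edgeR).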

How the data were processed

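Per the labels and the study's methods, paired-end reads of total RNA were mapped to GRCm38, and the submitters' processing notes name STAR 2.6.0c and RSEM 1.2.31. The labels and the study's methods name different library kits. The authors deposited, for each of 54232 genes and each library, an expected count (an estimate that need not be whole and is not normalized), TPM and FPKM (scaled to transcript length and to the library's total) and the mean transcript length. Gene names and positions came from GENCODE M21, which matched 54165 identifiers, and promoters from RefSeq (GRCm38.p6).

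Expected counts were rounded and tested with edgeR 4.0.16 in R 4.3.3 (TMM, filterByExpr with its minimum count of 10, quasi-likelihood test, Benjamini-Hochberg adjustment over 11254 genes, no block). Exact permutation tests were two-sided, on log2(normalized CPM + 0.5), in scipy 1.17.1. Deposited TPM, the authors' values per length, ordered the members, and FPKM can only give the same order within a library. Alternatives were DESeq2 1.42.0, RLE, 2 other count filters, limma-voom (limma 3.58.1), removal of mitochondrial and ribosomal RNA, an adjusted p alone, limma-trend on log2(TPM + 0.5), a replicate block with and without DESeq2, GC and length offsets with and without the block, and leaving out each library. Limma-trend on TPM rescaled over protein-coding genes was chosen after seeing the data.

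The members and lists were chosen with earlier results of these data known. Named were all members, and from each list the differentially expressed genes and the 3 with the highest mean TPM, together with the 5 genes closest in profile to the member with the smallest p. Marker genes, neighbours of *Mmp9* and *Timp1* and alternative calls outside that rule were named after their values were seen. Lists of resident macrophage, dendritic, T, B, astrocyte and oligodendrocyte markers were also counted. Results for some single genes and for 1 marker list are not reported here.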

Additional observations from a re-analysis of the deposited data

How the results depend on the processing

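*Mmp8*, *Mmp14*, *Timp1*, *Mmp25* and *Cd40* kept the direction of their log2 fold change in all 18 alternative fits, and 15 of the 19 alternatives called 0 members. Exceptions were the fit without the filter on low counts, which called 2 members (*Mmp14* and *Timp1*), and the 3 block fits below; the cause was not tested. Numbers of differentially expressed genes were 354 higher and 115 lower in WT with DESeq2, 610 and 262 without the filter, 111 and 14 with limma-trend on log2(TPM + 0.5), and 17 lower on the protein-coding TPM chosen after seeing the data. With 1 library left out they ranged from 110 to 204 higher and from 7 to 41 lower, and fewer libraries entered each of these fits.

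The replicate block called 1 member, *Timp1* (log2 fold change -1.19, adjusted p = 0.0233, edgeR), as did DESeq2 with the block (1 member, *Timp1* at -1.17, adjusted p = 0.0330) and the GC and length offsets with the block (1 member, *Timp1* at -1.05, adjusted p = 0.0199). The labels do not say what equal numbers share, though the deposited files give them a common tag. After centring on the group means, libraries with equal numbers correlated across genes by 0.0213 to 0.232, and 5 of 6 libraries correlated best with their own number. Over all genes, the block called 182 higher and 38 lower in WT (1.95%), DESeq2 with the block 226 and 52 (2.47%), the offsets with the block 261 and 86 (3.09%) and the offsets alone 181 and 42. *Mmp14* was not called with the block (adjusted p = 0.261, edgeR).

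In the lists, *Mmp25* was not called (0 of the other MMP and TIMP genes) on log2(TPM + 0.5), on protein-coding TPM, with the GC and length offsets or with any library left out (0 in all 6). *Cd40* was not called on log2(TPM + 0.5) (0 ADAM17 substrates), and leaving out 1 library called 0 to 1 substrates. Without the filter, 1 ADAM gene (*Adam19*), 1 cascade gene (*Plau*) and 2 matrix genes (*Spp1* and *Col4a2*) were called. The offsets with the block called 1 cascade gene (*Plau*), and DESeq2 called 1 matrix gene (*Col4a2*).

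Members close to 0 changed sign without passing the rule. *Mmp9* was at 0.0125 with DESeq2, 0.00291 with RLE, and from -1.07 to 0.83 with 1 library left out. *Mmp12* was at 0.0583 on log2(TPM + 0.5), 0.10 on protein-coding TPM, 0.0154 with the offsets, 0.0819 with the offsets and the block, and from -0.32 to 0.14 with 1 library left out. *Mmp19* ranged from -0.33 to 0.29, *Timp2* from -0.11 to 0.49 and *Adam17* from -0.0370 to 0.0809 with 1 library left out. *Timp2* was at -0.0413 with the offsets and -0.0297 with the offsets and the block, and *Adam17* at -0.0162 on log2(TPM + 0.5). *Ifnar1* turned to -0.30 on log2(TPM + 0.5) and -0.26 on protein-coding TPM, where the longer transcripts assigned in WT lower its TPM. Depth limits *Mmp13* and *Timp3*, which had at most 8 and 7 counts per library.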

Other observations

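The mean transcript length that RSEM assigned to *Mmp19*, by which its TPM are divided, was 2379, 2322 and 2991 bases in WT libraries 1, 2 and 3 and 2200.0, 2150 and 1811 bases in *Ifnar1*-/- libraries 1, 2 and 3, so every WT library was longer, over 3 annotated transcripts. Groups did not overlap in this length for 10.4% of tested genes with more than 1 transcript. The level per length of *Mmp19* was 40.7, 38.6 and 25.7 TPM in WT and 56.2, 38.6 and 41.3 TPM in *Ifnar1*-/- libraries, with overlapping groups (-0.38 on the scale of log2(TPM + 0.5), adjusted p = 0.838, limma-trend), and *Rn7s2* lowers the TPM of WT library 1. *Timp1* lengths differed little between libraries, from 846 to 880 bases.

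The sums of some further marker lists stand here beside the monocyte sum of 13668 to 16728 normalized CPM. Resident macrophage markers summed to 153 to 206 normalized CPM, mostly *Adgre1*, with *Cd163*, *Lyve1* and *Folr2* at 3 counts or fewer. T cell markers summed to 44.5, 18.5 and 42.2 normalized CPM in WT and to 18.6, 7.46 and 9.38 in *Ifnar1*-/- libraries, with *Cd3g* the most abundant. Dendritic cell markers summed to 12.9 to 27.2, oligodendrocyte markers to 42.5 to 56.3, astrocyte markers to 1.22 to 10.5 and B cell markers to 0.305 to 1.71 normalized CPM.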
